A study of Mus musculus with 4 samples.

Results

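Heat shock proteins and DNAJ chaperones are the genes whose symbols begin with Hspa, Hspb, Hspd, Hspe, Hsph or Hsp90, or with Dnaja, Dnajb or Dnajc, leaving out Hspbp1 and Hspbap1. The rule looks at symbols alone and found 62 of the 18894 genes listed in the tumor or the blood file. Of the 62 genes, 57 had a UMI (a unique molecular identifier, 1 count per captured RNA molecule) in some barcode of the tumor library and 59 in the blood library. They comprise 3 Hsp90 genes, 12 of the Hsp70 group (Hspa genes and the related Hsph1), 13 Dnaja and Dnajb genes, 24 Dnajc genes, 5 chaperonin genes and 5 small heat shock protein genes.

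The study compared neutrophils from tumors with neutrophils from the blood of the same 3 FVB mice, each bearing a tumor from injected cells of the mouse mammary tumor line Py7160 and given no treatment. Tumors were taken at a diameter of about 1 cm, 2 to 3 weeks after injection, and were broken up with enzymes, whereas blood had its red cells lysed. Enrichment on Ly6G, a neutrophil surface protein, gave about 90% purity, and cells were then stained with 1 hashtag antibody per mouse, pooled by tissue and sorted as CD11b+ Ly6G+ to over 99% purity. Each tissue gave 1 Drop-seq library, a droplet method that reads the 3′ end of each transcript, so tissue, library and digestion cannot be told apart and p-values reflect how much 3 mice vary inside each library.

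Chaperones bind proteins that are not yet folded or have lost their fold. Hsp70 proteins hold short exposed stretches of a client in cycles of ATP hydrolysis. DNAJ proteins (also called Hsp40) bring the clients and start the hydrolysis through their J domain, and Hsp90 proteins finish the folding of kinases, receptors and other signalling proteins. The cytosol, the endoplasmic reticulum (ER) and the mitochondria each have their own set. Heat and other proteotoxic stress raise the cytosolic set through the transcription factor Hsf1, and unfolded protein in the ER raises the ER set through Atf6 and Xbp1.

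The compared cells, barcodes with at least 200 genes, at most 15% mitochondrial UMIs and at least 70% of hashtag counts from 1 hashtag, numbered 841 in tumor and 1375 in blood, and no barcode was kept in both libraries. Summed per mouse, they held 70612 to 385370 UMIs in tumor and 330296 to 436713 in blood, so tumor mouse 1 has the least depth. Tumor mouse 2 depends most on how hashtags are read, and 230 of its 564 cells had no call by HTODemux, an algorithm that sets a threshold for each hashtag. Those 230 cells were at 4125 CPM of Camp and 5364 of Ngp, granule genes of immature neutrophils, against 11 and 215 CPM in the 243 cells that HTODemux also gave to mouse 2. Summed immature neutrophil markers were at 1983, 6799 and 3269 CPM in tumor mice 1, 2 and 3 and at 6200 to 13356 in blood (4 of 5 tested were lower, Mpo and Elane were at 0 in both). The median share of mitochondrial UMIs was 2.99% in tumor and 5.75% in blood. Summed neutrophil markers reached 67498 to 81685 CPM (UMIs per 1000000 UMIs of the same sum) in the tumor mice against 177919 to 205589 in the blood mice. Hemoglobin and other erythroid markers were at 0 in tumor and at 13960 to 22154 CPM in blood. Markers of monocytes or macrophages stood at 595, 4723 and 4706 CPM in tumor mice 1, 2 and 3 and at 639 to 754 in blood (3 of 5 tested markers of 12 were higher and 1 lower), and cells carrying markers of another type made up 6.78% of tumor and 2.98% of blood cells. The epithelial or tumor cell markers had 1 UMI in each tissue, and the part of these differences in the results was not tested unless a value below bears on it.

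The chaperone genes together took up more of the tumor transcripts. Their summed level was 6458, 6586 and 5827 CPM in tumor mice 1, 2 and 3 and 1928, 1984 and 1989 CPM in blood mice 1, 2 and 3. The tumor mice thus lay above the blood mice without overlap. Each molecule counts once whatever its length, so levels of different genes are given per molecule, except where genes share their 3′ ends, as named below. Hspa5 alone held 32.3% of the chaperone UMIs in tumor and 16.2% in blood, and without it the tumor mice were still at 3859 to 4487 CPM and the blood mice at 1580 to 1689. The families did not move alike. Summed Hsp70 genes stood at 2939 ± 284 CPM in tumor (SD, n = 3 mice, as throughout) and 450.5 ± 88.4 in blood, Hsp90 genes at 1460 ± 142 and 331 ± 43.4, and Dnaja and Dnajb genes at 1162 ± 146 and 383 ± 18.6. Summed Dnajc genes were at 693 ± 33.6 CPM in tumor and 780 ± 46.4 in blood, and they made up 10.5% of the chaperone UMIs in tumor against 39.9% in blood.

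**Figure D1:**
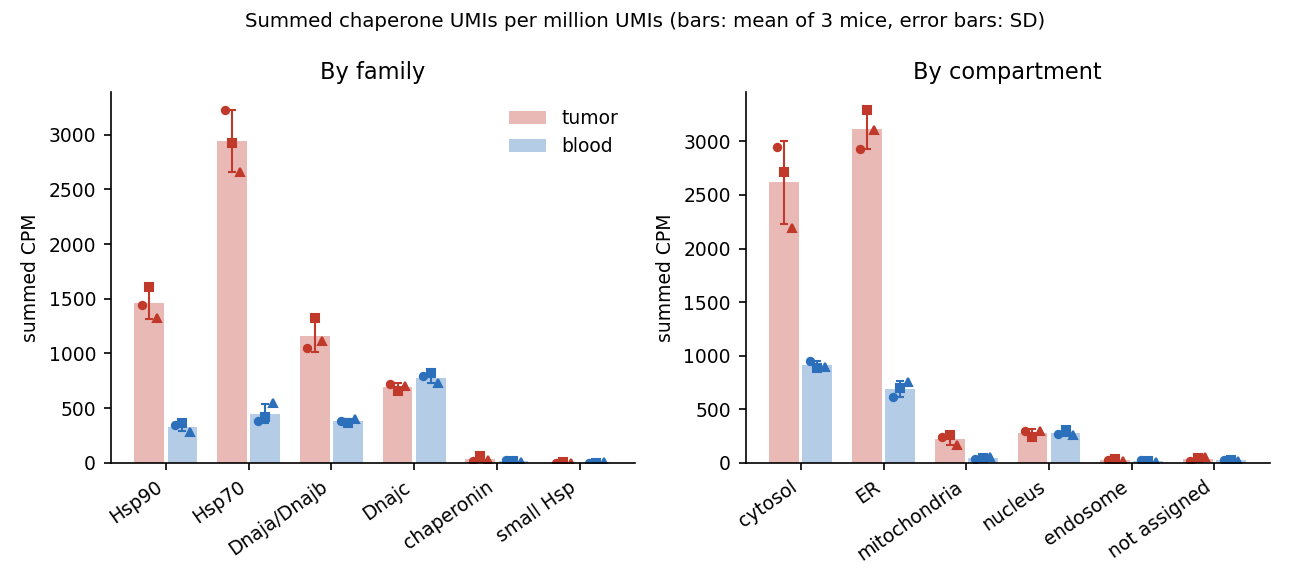
Summed UMIs of chaperone genes per 1000000 UMIs (CPM, y axis) by family (left) and by compartment (right), with tumor in red and blood in blue; bars are means of 3 mice, error bars SD, and circles, squares and triangles mice 1, 2 and 3. Hsp70, Hsp90 and Dnaja/Dnajb sums are higher in every tumor mouse than in every blood mouse, whereas the Dnajc sums lie at 657 to 722 CPM in tumor and 730 to 821 in blood.

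Gene by gene, 21 of the 62 members had enough counts to be tested, and edgeR's quasi-likelihood test with Benjamini-Hochberg adjustment over 3674 genes called 14 of them higher in tumor and 1 lower. Of all 3674 tested genes, 30.2% were called higher and 29.8% lower. All 14 genes called higher were higher in every tumor mouse than in every blood mouse, a separation that 29.8% of tested genes showed. The call and the separation use the same sums, so the separation is not further support for the calls. Lower in every tumor mouse were 3 members (Dnajc3, Dnajc7 and Dnajc8), against 33.2% of tested genes (63.0% for both directions). The median log2 fold change, tumor minus blood, was 1.60 over the 21 tested members and -0.04 over all tested genes. The calls were split by family: 3 of 3 tested Hsp90 genes, 6 of 6 tested Hsp70 genes and 5 of 6 tested Dnaja and Dnajb genes rose, while none of the 6 tested Dnajc genes rose and 1 fell. The other 41 members had at most 18 UMIs in tumor and 35 in blood and were not tested. Without the low-count filter, 59 members entered the test and 17 were called higher and 1 lower, against 7.69% and 8.71% of 16032 genes. The median log2 fold change was then 0.68 over the members and -0.15 over all genes. By family, 3 of 3 Hsp90, 9 of 12 Hsp70, 5 of 13 Dnaja and Dnajb and 0 of 24 Dnajc genes were then called higher. The filter passes a gene on enough counts in 1 tissue, so genes low in blood, such as Hspa9 and Hspa1a, entered through their tumor counts. The tallies of tested genes rest partly on such genes.

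**Figure D2:**
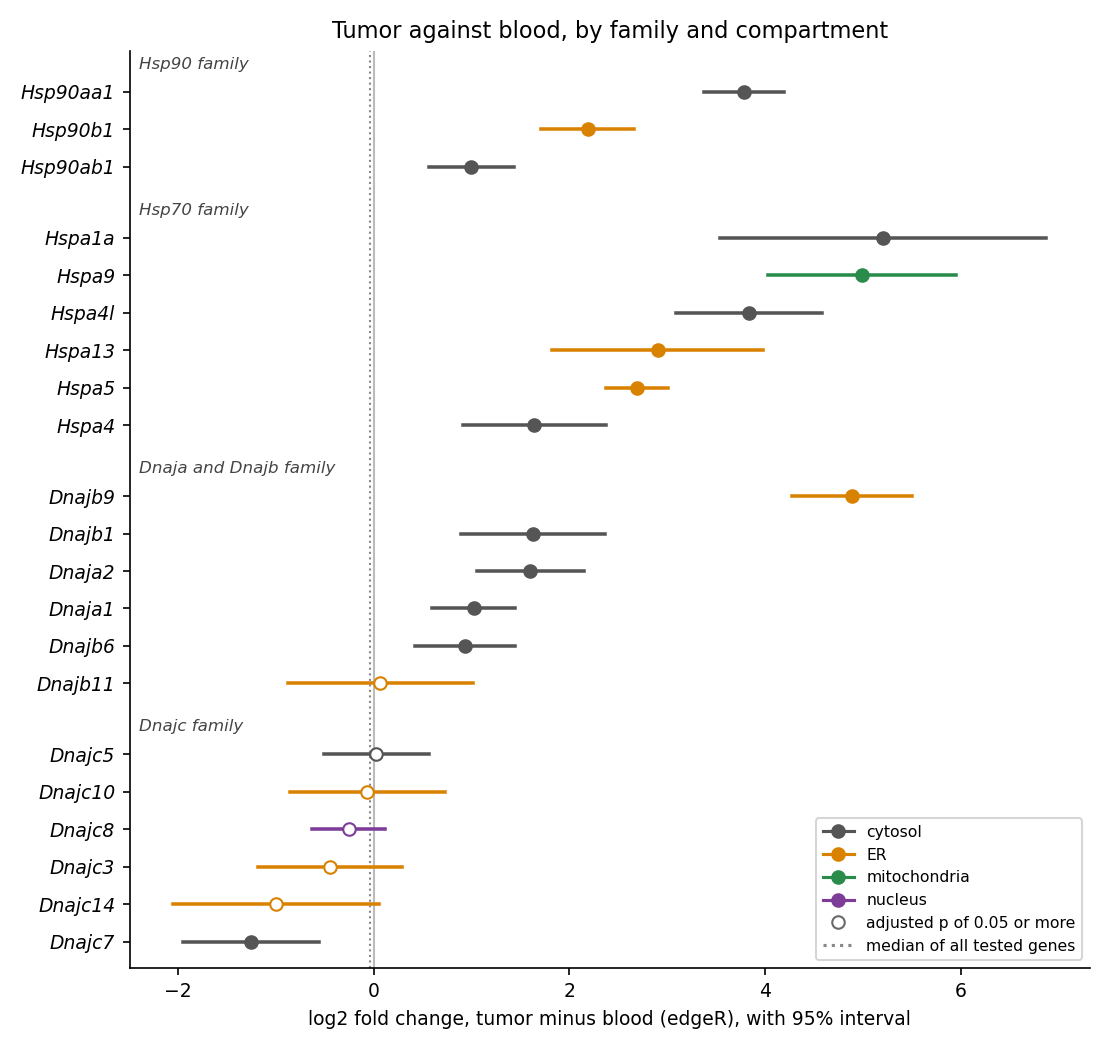
Log2 fold change, tumor minus blood, of the 21 tested chaperone genes (x axis) with its 95% interval, by family and coloured by compartment; open circles did not pass an adjusted p of 0.05 and the dotted line is the median of all tested genes. The Hsp90 and Hsp70 genes all lie to the right of 0, and the Dnajc genes lie around or to the left of it.

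The 3 Hsp90 genes all rose, by different amounts. Hsp90aa1, the stress-inducible cytosolic Hsp90 (chr12:110690605-110702728, minus strand, GRCm38), was at 765, 828 and 608 CPM in tumor mice 1, 2 and 3 and at 59.5, 52.6 and 51.5 CPM in blood mice 1, 2 and 3. Its tumor level was thus far above the blood level in each mouse, with a log2 fold change of 3.79 ± 0.20 (SE, 95% interval 3.37 to 4.20, adjusted p = 3.83e-11 in edgeR). Hsp90ab1, the cytosolic form that most cells express constantly, was at 453, 426 and 265 CPM in tumor and 208, 226 and 154 CPM in blood. The lowest tumor mouse was near the highest blood mouse, and the log2 fold change was 1.00 ± 0.21 (adjusted p = 0.000505 in edgeR). With all sums thinned to the smallest it was 0.57 and no longer called (adjusted p = 0.152 in edgeR). In blood Hsp90ab1 was the more abundant of the cytosolic pair, and in tumor it was Hsp90aa1. Hsp90b1 (Grp94), the Hsp90 of the ER, was at 227, 356 and 454 CPM in tumor and 80.1, 84.2 and 75.7 in blood, a log2 fold change of 2.19 ± 0.23 (adjusted p = 2.96e-07 in edgeR). Cells carrying markers of another type held 36.1% of the tumor UMIs of Hsp90ab1, 30.1% of those of Hsp90b1 and 8.33% of those of Hsp90aa1. With those cells left out in both tissues, the log2 fold changes were 0.88, 2.05 and 4.06 and all 3 genes were again called higher by edgeR.

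Among the Hsp70 genes of the ER, Hspa5 had the highest level of all members in both tissues. Hspa5 (BiP, the main Hsp70 of the ER lumen, which also holds the unfolded protein sensors inactive; chr2:34771970-34777547, plus strand, GRCm38) was at 2082, 2099 and 1968 CPM in tumor mice 1, 2 and 3. In blood mice 1, 2 and 3 it was at 272, 295 and 409 CPM. All 3 tumor mice lay far above the highest blood mouse, and the log2 fold change was 2.69 ± 0.15 (95% interval 2.37 to 3.01, adjusted p = 1.27e-10 in edgeR). Its UMIs were spread over many cells, with 506 of the 841 tumor cells holding at least 1 and the 10 richest cells holding 8.68% of them. Hspa13 (Stch), a small ER relative that lacks the client-binding domain, was at 156, 80.4 and 51.3 CPM in tumor and 6.87, 23.7 and 3.03 in blood, on 13 blood UMIs. It rose by a log2 fold change of 2.90 ± 0.51 (adjusted p = 0.000118 in edgeR). Without blood mouse 2, which holds 9 of the 13 blood UMIs, the log2 fold change was 3.83. Hspa13 had too few counts to be tested at a 90% top hashtag, at most 5% mitochondrial UMIs or in sums thinned to the smallest.

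The ER stress element, a sequence found in promoters of ER chaperones and bound by Atf6 together with the factor NF-Y, was searched as CCAAT, 9 bases of any kind and CCACG on both strands in RefSeq windows (GRCm38.p6) from 250 bases before to 50 after each gene's start. Windows were found for 46 members, and for none of Hsp90aa1, Hsp90ab1, Hspa8, Hspa9, Hspa13 and Dnajc5. The element stood in 3 of the 46 (6.52%) and in 0.137% of 27025 genes of the same table. The matches are shown because Hspa5 and Hsp90b1, which rose, and Dnajc3, which was not called, all hold it. Capitals mark the match, each run is 30 bases on the gene's strand, and the second Hsp90b1 match is on the opposite strand.
Hspa5, chr2:34772020-34772049: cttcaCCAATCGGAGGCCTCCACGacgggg
Hsp90b1, chr10:86705632-86705661: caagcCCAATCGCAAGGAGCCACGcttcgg
Hsp90b1, chr10:86705527-86705556: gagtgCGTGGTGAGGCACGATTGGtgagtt
Dnajc3, chr14:118937822-118937851: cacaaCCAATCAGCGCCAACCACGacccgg
The Hspa5 match begins 65 bases before the RefSeq start and lies inside an exon annotated by GENCODE M21, the Hsp90b1 matches begin 212 and 107 bases before the start, and the Dnajc3 match 105 bases before it. Dnajb9, which had a larger fold change than these 3, has none of these letters in its window.

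Hspa9 (mortalin), the Hsp70 of the mitochondrial matrix that pulls imported proteins through the inner membrane, was at 142, 171 and 103 CPM in tumor mice 1, 2 and 3. In blood it was at 2.29, 7.89 and 3.03 CPM, on 5 UMIs in all against 88 in tumor. The ratio of summed CPM was 35.2 (95% counting interval 14.5 to 111) and the edgeR log2 fold change 4.99 ± 0.45 (adjusted p = 6.23e-08), and 6.09 without cells carrying markers of another type or 7.48 with at most 5% mitochondrial UMIs. Over the 19 alternatives that tested it, the lowest value was 4.53, with 1 mouse left out. Cells carrying markers of another type held 3 of the 5 blood UMIs. Hspa9 was the sole tested member of the 8 that act in mitochondria.

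In the cytosol, Hspa1a had the largest fitted fold change and the least even counts. Hspa1a, the strongly heat-inducible Hsp70, was at 312, 85.6 and 34.2 CPM in tumor mice 1, 2 and 3 and at 2.29, 0 and 6.06 CPM in blood mice 1, 2 and 3. These are 59 UMIs in tumor and 3 in blood, a ratio of 39.4 with a counting interval of 12.8 to 196 (edgeR log2 fold change 5.21 ± 0.79, adjusted p = 2.56e-05, and 4.58 without blood mouse 2 or 5.94 without blood mouse 3). The 59 UMIs were in 17 tumor cells, 21 of them in a single cell of mouse 1, and the 10 richest cells held 88.1%. Without those 10 cells the tumor mice were at 0, 10.5 and 25.8 CPM, so that mouse 1 no longer lay above the blood mice. This last comparison was chosen after seeing the data. With cells carrying markers of another type left out, or with HTODemux, Hspa1a had too few counts to be tested. The same held with at least 300 genes, at most 5% mitochondrial UMIs, both hashtag rules together or sums thinned to the smallest. It was thus tested in 14 of the 20 alternative settings. Its near copy Hspa1b had 8 UMIs in tumor, none of them in mouse 3, and 0 in blood. Against a floor of 3 counts over the blood mice this is 5.34-fold higher, and the counting interval of the tumor to blood ratio begins at 3.42. The last 500 transcript bases of Hspa1a and Hspa1b hold no 50-base stretch found in another gene.

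The Hsp110 relatives, which release ADP from Hsp70 and so reset it, were also higher. Hspa4l was at 212, 221 and 377 CPM in tumor and 9.16, 31.6 and 15.1 CPM in blood, a log2 fold change of 3.83 ± 0.35 (adjusted p = 6.73e-08 in edgeR). Over the 20 alternatives it ran from 3.31 to 5.46, the highest in sums thinned to the smallest. Hspa4 was at 212, 132 and 94.1 CPM in tumor and 55.0, 21.0 and 57.5 CPM in blood, with a smaller log2 fold change of 1.64 ± 0.34 (adjusted p = 0.000566 in edgeR). The third relative, Hsph1, was seldom seen: all of its 13 tumor UMIs came from 7 cells of mouse 2, and blood had 1, a ratio of 26.0 with a counting interval of 3.91 to 1106. Hspa8, the constitutive cytosolic Hsp70 that most cells carry in large amounts, had 10 UMIs in tumor and 4 in blood. Its count is uncertain, because 81.8% of the 50-base stretches in its last 500 transcript bases also occur in 11 other genes, mostly processed copies, and how such reads were counted is not given in the sources used here. The same stretches are unique to the gene for 50 of the 61 annotated members, and 4.21% of those of Hsp90b1 and 7.76% of those of Hsp90ab1 are shared.

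**Figure D3:**
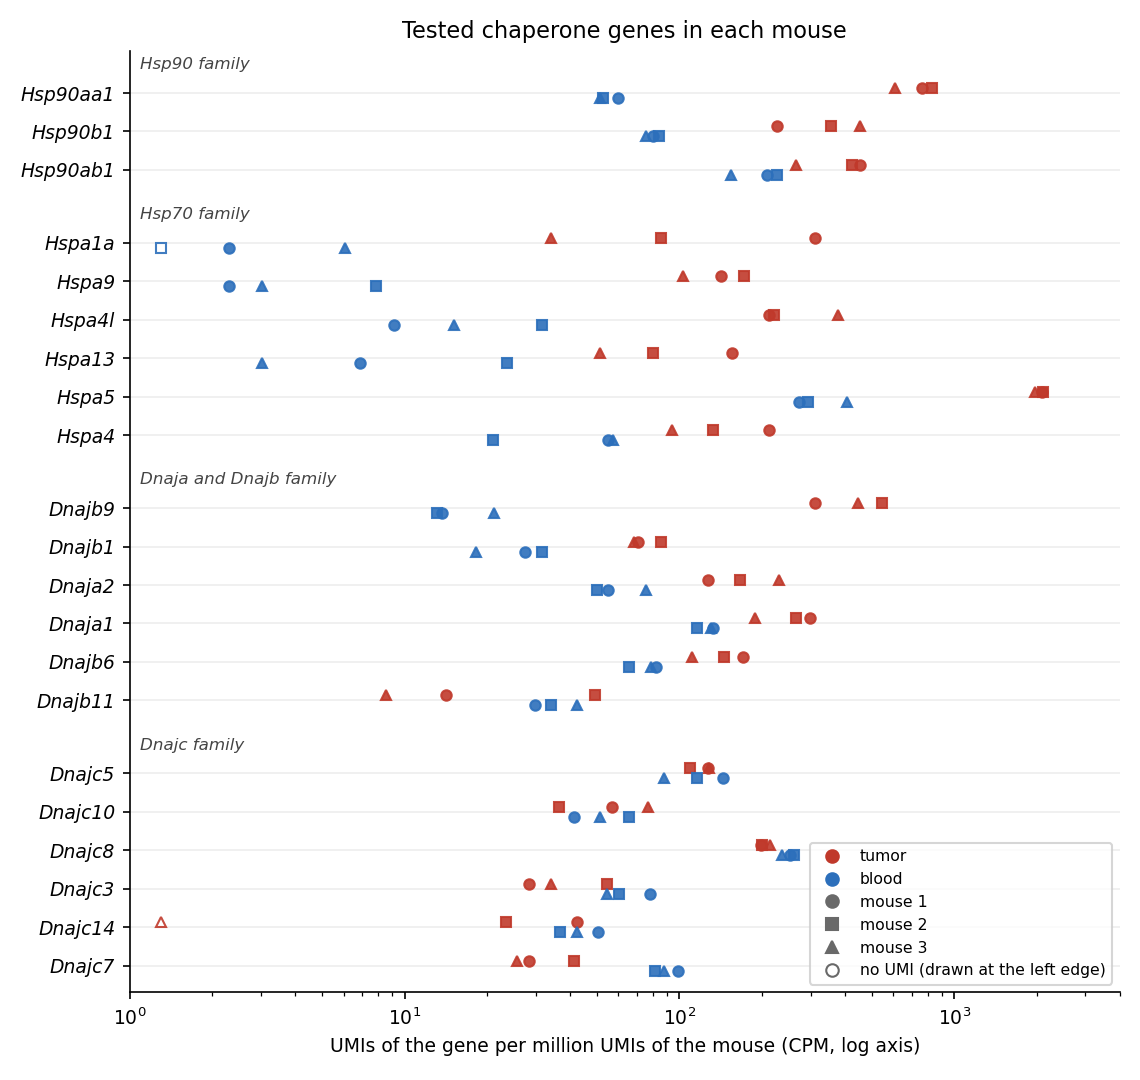
Level of each tested chaperone gene in each mouse, in UMIs per 1000000 UMIs of that mouse (CPM, log axis), with tumor in red and blood in blue and mice 1, 2 and 3 as circles, squares and triangles; open symbols at the left edge mark 0 UMIs. The 14 genes called higher have no overlap between tissues, and Hspa1a spreads most widely, from 34.2 to 312 CPM in tumor.

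Of the Dnaja and Dnajb genes, the J-domain partners that most resemble the bacterial DnaJ, the ER member Dnajb9 rose most. Dnajb9 (ERdj4, which guides misfolded proteins to degradation and loads Hspa5 onto the stress sensor Ern1; chr12:44205559-44210326, minus strand, GRCm38) was at 312, 545 and 445 CPM in tumor mice 1, 2 and 3. In blood mice 1, 2 and 3 it was at 13.7, 13.2 and 21.2 CPM. This made it the second most abundant ER member in tumor after Hspa5, while no blood mouse was above 21.2 CPM, with a log2 fold change of 4.89 ± 0.29 (95% interval 4.28 to 5.50, adjusted p = 2.54e-10 in edgeR). Over the 20 alternatives the Dnajb9 value ran from 4.60 to 5.96, the highest in sums thinned to the smallest. The other tested ER member of this family, Dnajb11 (ERdj3, a cofactor that hands clients to Hspa5), was at 14.2, 49.3 and 8.56 CPM in tumor and 29.8, 34.2 and 42.4 in blood. Its groups overlapped, and its edgeR log2 fold change of 0.06 (95% interval -0.88 to 1.01, adjusted p = 0.911) rested on tumor mouse 2, without which it was -1.64.

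The cytosolic partners of Hsp70 rose by smaller amounts. Dnajb1, the heat-inducible Hsp40 that works with Hspa1a, was at 70.8, 85.6 and 68.5 CPM in tumor and 27.5, 31.6 and 18.2 in blood, a log2 fold change of 1.63 ± 0.35 (adjusted p = 0.000718 in edgeR). Dnaja2 was at 127, 166 and 231 CPM in tumor and 55.0, 50.0 and 75.7 in blood (log2 fold change 1.60 ± 0.26, adjusted p = 5.33e-05 in edgeR). Dnaja1, like Dnaja2 a general cofactor of cytosolic Hsp70, was at 297, 265 and 188 CPM in tumor and 133, 116 and 130 in blood (log2 fold change 1.02 ± 0.20, adjusted p = 0.000346 in edgeR). Dnajb6, a suppressor of protein aggregation, is named here after its values were seen, to complete the 14. It was at 170, 145 and 111 CPM in tumor and 82.4, 65.8 and 78.7 in blood (log2 fold change 0.93 ± 0.24, adjusted p = 0.00308 in edgeR), and it was no longer called without tumor mouse 2 (0.85) or without the low-count filter (0.68). None of these cytosolic genes overlapped between the tissues. The other 7 Dnaja and Dnajb genes had at most 15 UMIs in tumor and 22 in blood, and of these Dnajb4, which was called when the low-count filter was dropped (adjusted p = 0.0082 in edgeR), had 15 and 3. Hspa1b, Hsph1 and the pseudogene Hspa9-ps1 (11 and 1 UMIs) were the other 3 calls added in that way, and all 4 had at most 15 UMIs in tumor.

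The Dnajc genes, a varied class that shares little beyond the J domain, did not follow. Dnajc7 (Tpr2), which passes clients between Hsp70 and Hsp90, was the 1 member that fell. It was at 28.3, 41.5 and 25.7 CPM in tumor and 98.5, 81.6 and 87.8 in blood, so that the tumor mice all lay lower, with a log2 fold change of -1.25 ± 0.33 (adjusted p = 0.00339 in edgeR). Dnajc8, a nuclear protein linked to splicing, was the most abundant Dnajc gene, at 198, 200 and 214 CPM in tumor and 252, 260 and 236 in blood. Its log2 fold change of -0.26 (95% interval -0.63 to 0.11, adjusted p = 0.221 in edgeR) did not pass. Dnajc5, the cysteine string protein of secretory vesicles, was at 127, 109 and 128 CPM in tumor and 144, 116 and 87.8 in blood, with a log2 fold change of 0.03 (95% interval -0.51 to 0.56, adjusted p = 0.937 in edgeR). These intervals leave out 2-fold changes for Dnajc5 and Dnajc8. Dnajc3 (p58IPK), an ER cofactor of Hspa5, was at 28.3, 54.5 and 34.2 CPM in tumor and 77.9, 60.5 and 54.5 in blood (log2 fold change -0.45, 95% interval -1.19 to 0.29, adjusted p = 0.287 in edgeR). The 18 untested Dnajc genes had at most 17 UMIs in tumor and 35 in blood, 117 and 187 in sum.

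The chaperonin and small heat shock protein genes were close to absent. Hspd1 (Hsp60), the barrel of the mitochondrial chaperonin, had 16 UMIs in tumor and 11 in blood, a ratio of 2.91 with a counting interval of 1.27 to 6.94. Its lid Hspe1 (Hsp10) had 9 UMIs, all in tumor mouse 2, and 6 in blood, and 53.2% of the 50-base stretches at its 3′ end also occur in other genes. Hspb1 (Hsp27) had 1 UMI in tumor and 0 in blood, and the 5 small heat shock protein genes together had 2 and 6. None of these 10 genes passed the low-count filter. Without it edgeR tested 7 of them and called none, with Hspd1 at a log2 fold change of 1.25 (adjusted p = 0.231 in edgeR) and Hspe1 at 1.23 (adjusted p = 0.432 in edgeR).

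The heat shock element, the binding sequence of Hsf1, was searched as GAA, TTC and GAA with 2 bases of any kind between them, and as its reverse complement. It stood in the windows of 4 of 46 members (8.70%), Dnajb6, Hspd1, Hspe1 and Hsph1, and of 0.662% of 27025 genes. The Hsph1 match lies after the start, Dnajb6 is the sole tested one of these, and the matches of Hspd1 and Hspe1 are the same bases read from opposite strands. Hspa1a and Dnajb1, called heat-inducible above, and Hspa1b have none of these exact letters in their windows. Hsp90aa1 had no window to search. Both runs below are 30 bases on the gene's strand with the match, or 2 overlapping matches for Hspe1, in capitals.
Dnajb6, chr5:29735844-29735873: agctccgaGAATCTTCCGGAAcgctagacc
Hspe1, chr1:55088051-55088080: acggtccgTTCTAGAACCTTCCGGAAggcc
The Dnajb6 match begins 46 bases before 1 RefSeq start of the gene and 127 before another, and its run overlaps an exon of Dnajb6 annotated by GENCODE M21. The first Hspe1 match begins 89 bases before the RefSeq start.

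By compartment, the ER and cytosolic sums differed most in CPM. The 14 ER genes summed to 3111 ± 182 CPM in tumor and 690 ± 70.7 in blood, the 28 cytosolic genes to 2617 ± 387 and 912 ± 35.6, and the 8 mitochondrial genes to 222 ± 52.4 and 46.8 ± 6.85. Of the ER sums, Hspa5 alone gave 2050 CPM in tumor and 325 in blood. The 7 Dnajc genes of the ER went the other way, with 144 ± 8.33 CPM in tumor and 189 ± 16.3 in blood. The 4 nuclear genes were at 279 ± 34.5 CPM in tumor and 276 ± 23.7 in blood. In the cytosol 9 of 11 tested genes rose and Dnajc7 fell. In the ER 4 of 8 tested genes rose (Hspa5, Hsp90b1, Dnajb9 and Hspa13) and none was called lower, beside 30.2% higher and 29.8% lower of all tested genes. Without the low-count filter, 11 of 26 cytosolic genes were called higher and 1 lower, and 4 of 14 ER genes higher and 0 lower. Of all genes 7.69% were then called higher and 8.71% lower. The other 4 tested ER genes were Dnajb11, Dnajc3, Dnajc10 and Dnajc14, all J-domain proteins, of which the last pair, like Dnajb4 and Hspa9-ps1 above, is named after its values were seen.

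Genes that work with these chaperones were read from the same fit. Of the Hsf1 and cytosolic cochaperone list, 9 of 27 genes were tested and 4 rose (beside 30.2% of all tested genes), with a median log2 fold change of 0.94. Without the low-count filter 3 of 26 were called higher. The largest rises were those of St13 (Hip, which steadies Hsp70 on its client), at 194 ± 56.9 CPM in tumor and 63.3 ± 7.30 in blood (log2 fold change 1.82, adjusted p = 9.94e-06 in edgeR), Stub1 (CHIP, a ubiquitin ligase for Hsp70 clients, 1.46) and Cdc37 (which brings kinases to Hsp90, 1.31). Hsf1 itself had 4 UMIs in tumor and 2 in blood. Of the 8 genes of the cytosolic chaperonin TRiC, 2 were tested, and both rose on this scale, Cct8 (2.18) and Cct2 (2.01), beside 30.2% of all tested genes. Without the filter 3 of 8 were called higher, beside 7.69% of all genes. Of 18 tested genes of ER folding and the unfolded protein response, 9 were called higher and 2 lower (median 0.64), beside 30.2% and 29.8% of all tested genes. Without the filter the counts were 7 and 2 of 26. P4hb, a protein disulfide isomerase, was at 613 ± 92.2 CPM in tumor and 13.9 ± 9.15 in blood (log2 fold change 5.51, adjusted p = 3.19e-11 in edgeR), Ppp1r15a, which restores translation after stress, at 1030 ± 191 and 30.1 ± 18.9 (5.21), and Canx, the lectin chaperone calnexin, at 299 ± 25.3 and 41.3 ± 11.9 (2.90). Atf4 (2.22) and Ddit3 (1.28) rose as well. Xbp1 fell, from 148 ± 24.5 CPM in blood to 40.7 ± 35.3 in tumor (log2 fold change -1.42, adjusted p = 0.00162 in edgeR), and these counts do not tell its spliced from its unspliced form. Of the 12 mitochondrial quality control genes 4 were tested and 2 rose, beside 30.2% of all tested genes. They were the import receptor Tomm20 (2.98) and Grpel1 (2.34), the exchange factor of Hspa9. Without the filter 3 of 12 were called higher.

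Immediate early genes linked to tissue dissociation, none of them chaperones, moved with tissue too. All 15 were tested. Of these 12 rose, 2 fell and their median on the log2 scale was 1.47, beside -0.04 for all tested genes, of which 30.2% rose and 29.8% fell. Without the filter 10 rose and 2 fell. Their summed level was 13811 to 14965 CPM in the tumor mice and 4105 to 5804 in the blood mice. Egr1 (7.35), Fosb (6.02) and Atf3 (5.41) had the largest edgeR log2 fold changes. Tumors and not blood were digested, and the part of this step in the chaperone levels was not tested.

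Chaperone transcripts were also plentiful outside the compared cells. Tumor barcodes with 20 to 60 UMIs, whose content (free RNA, broken cells or cells of few UMIs) was not tested, had a summed chaperone level of 5350 CPM (95% counting interval 5077 to 5635) against 6415 in the pooled tumor cells. The same barcodes of the blood library were at 1604 CPM against 1964 in blood cells. Single genes differed in this respect. Hspa4l was at 560 CPM in these tumor barcodes and 251 in the cells, a ratio of cells over barcodes of 0.449 (counting interval 0.355 to 0.568). Hsp90aa1 was at 847 and 775 CPM, a ratio of 0.915 (0.778 to 1.08). Hspa5 (1.53, counting interval 1.36 to 1.73), Dnajb9 (2.66, 1.96 to 3.67), Hspa13 (2.81, 1.32 to 6.87) and Dnajb1 (2.69, 1.26 to 6.60) were instead higher in the cells. So were Hspa1a (2.30, 1.22 to 4.70) and Hsp90ab1 (1.40, 1.07 to 1.84). For Hspa1a this rests on few cells, as 21 of its 59 UMIs were in 1 cell and 88.1% in 10. The counting interval takes UMIs as independent and does not cover that. For the other genes called higher in tumor, Dnaja1, Dnaja2, Dnajb6, Hsp90b1, Hspa4 and Hspa9, the interval held 1.

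**Figure D4:**
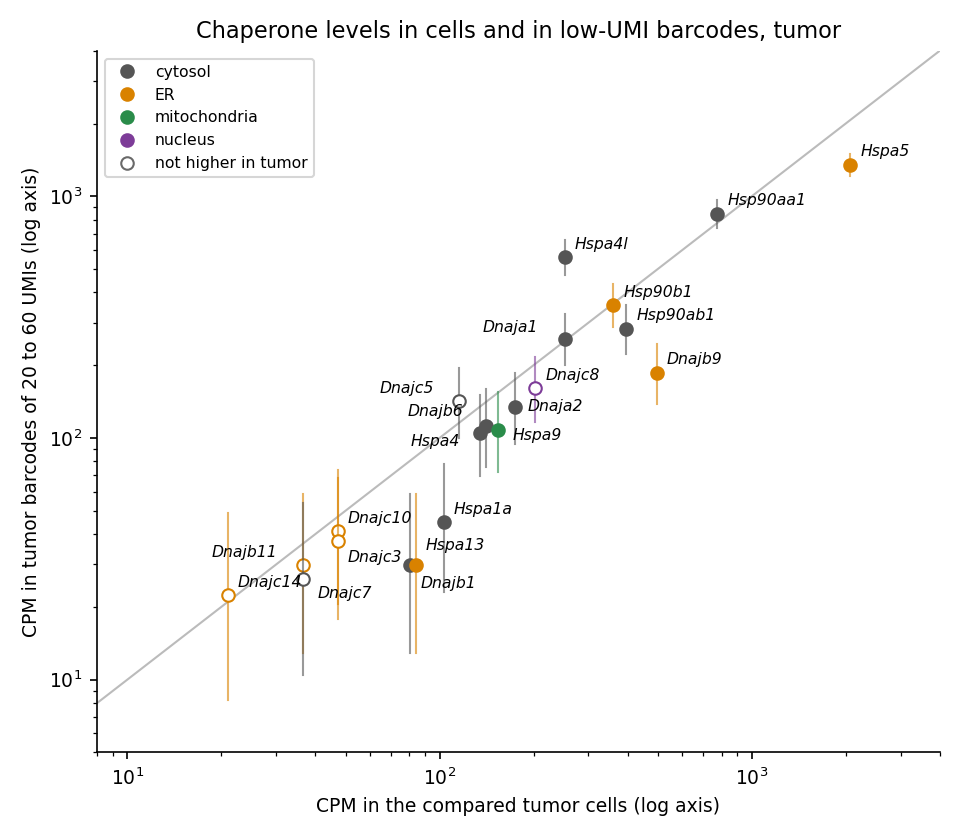
Level of each tested chaperone gene in the compared tumor cells (x axis, CPM, log) against tumor barcodes of 20 to 60 UMIs (y axis, CPM, log, with 95% counting intervals), coloured by compartment; filled circles are genes called higher in tumor and the grey line marks equal levels. Hspa4l lies above the line, and Dnajb9 and Hspa5 lie below it.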

How the data were processed

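The authors deposited raw UMI counts of each gene in each barcode, and a second table of raw hashtag counts. The submitters' processing notes name STAR and mm10. No version, counter, annotation or barcode filter is given in the sources used here. UMIs of barcodes with at least 200 genes, at most 15% mitochondrial UMIs, at least 10 hashtag counts and at least 70% from the top hashtag were summed per mouse and tissue. Hashtags remove doublets of different mice, and no other doublet caller was run. Sums of all genes went into edgeR 4.0.16 (R 4.3.3), quasi-likelihood test with filterByExpr, TMM, tissue as the only term, Benjamini-Hochberg at 0.05. CPM are UMIs per 1000000 UMIs of the sum. Counting intervals (exact, 95%) and the floor of 3 counts cover counting error only. Shared 3′ stretches and exons come from GENCODE M21 and promoters from RefSeq, both GRCm38. Cells carry another type with at least 2 UMIs over at least 2 of its markers. On simulated counts the test called 50 of 85 genes changed 2-fold, 86 of 91 changed 4-fold and 3 of 3163 unchanged. That simulation held a far smaller share of changed genes than was called here, so it does not check the scaling of these data. Of the deposited barcodes 20 occur in both libraries, and 0 among the cells compared. Named genes are the 12 called members of largest fold in each direction, 17 fixed members, the 2 most abundant tested but uncalled members of each family, and 3 called genes of largest fold per partner list with Hsf1, Xbp1, Ddit3 and Atf4. A comparison planned within the tumor cells is not reported here. Members and lists were chosen with earlier results of these data known. Alternatives covered scaling, filters, hashtag rules (HTODemux of Seurat 5.3.0), DESeq2 1.42.0, depth and left-out mice.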

Additional observations from a re-analysis of the deposited data

Results flagged for a closer look

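Barcodes outside the tested sums had a higher summed chaperone level in tumor than in blood, with a counting interval above that of the matching blood barcodes in each of 4 classes. The classes were not tested against each other. Tumor barcodes of at least 200 genes that the hashtag rule left out had a summed chaperone level of 6994 CPM, against 1788 in blood. Those over 15% mitochondrial UMIs, 16 barcodes in tumor and 7 in blood, were at 8945 and 3876 CPM. Barcodes of 100 to 199 genes were at 6619 and 2006 CPM, and barcodes of 20 to 60 UMIs at 5350 and 1604 CPM.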

How the results depend on the processing

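For tumor against blood, where 14 members were called higher and 1 lower, 20 alternatives were run. In each of them the calls that could be tested were kept, except Dnajb6 (no low-count filter, without tumor mouse 2) and Hsp90ab1 (sums thinned to the smallest, 0.57). Thinned sums gave 6 higher and 0 lower among 8 tested members, beside 416 higher and 394 lower of all 1185 tested genes. The count of members called lower was 2 with HTODemux and 2 with cells on which both hashtag rules gave the same mouse (an alternative added after seeing the data), where Dnajc3 joined at -1.07 and -1.01, and 0 with at most 5% mitochondrial UMIs, where Dnajc7 was not tested. Of all tested genes, 938 of 2916 were called lower with HTODemux, 923 of 2875 with both hashtag rules and 674 of 2102 at 5% mitochondrial UMIs. Leaving out 1 mouse gave 14 to 15 higher and 1 lower, beside 833 to 1215 higher and 849 to 1235 lower of 3701 to 4230 tested genes. The replicate block, pairing equal hashtag numbers, gave 14 higher and 1 lower (993 and 980 of all genes against 1111 and 1094). The labels do not say that a number marks the same mouse, and same-number correlations were 0.023, 0.0089 and -0.023.
Values near 0 changed sign. Dnajb11 (0.06) was at -0.26 with DESeq2, -0.011 with RLE size factors, -0.20 without the filter, -0.21 with the block, -0.094 without cells of another type and -1.64 to 0.34 leaving out 1 mouse. Dnajc5 (0.03) was at -0.0069 with DESeq2, -0.19 with HTODemux, -0.047 with RLE, -0.44 at 300 genes, -0.068 at a 90% top hashtag, -0.034 at 5% mitochondrial UMIs, -0.39 with both hashtag rules, -0.21 without the filter and -0.29 to 0.15 leaving out 1 mouse. The cause was not tested. Low counts kept 41 members out of the test. Without the filter 38 of them entered it and 4 were called, and 3 had no UMI.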
